A study of Mus musculus with 8 samples.

Results

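The CXC chemokines are small secreted proteins that attract leukocytes, and 10 genes of this family were described here across naïve and efferocytic mouse macrophages (Mϕ) with and without an inflammatory stimulus. The genes were Cxcl1, Cxcl2, Cxcl3, Cxcl5, Cxcl9, Cxcl10, Cxcl11, Cxcl12, Cxcl14 and Cxcl16, chosen as members of the family by their names, and they were 10 of the 55359 genes listed. Total RNA sequencing was performed on bone marrow-derived Mϕ (BMDMs) of C57BL/6 wildtype mice, grown with 20 ng/mL M-CSF and 20 ng/mL GM-CSF. The question was how the uptake of apoptotic cells, called efferocytosis, changes the RNA response of Mϕ to inflammation.

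There were 4 groups with 2 samples each, which carry the replicate numbers 1 and 2. Ctrl Mϕ were naïve and unstimulated. LPS Mϕ were naïve and received 100 ng/mL lipopolysaccharide, a bacterial cell wall component, with 100 U/mL murine interferon γ (LPS/IFNγ) for 6 h. Eff Mϕ were co-cultured for 16 h with apoptotic NIH-3T3 cells, a mouse fibroblast line that carries a caspase-8 domain and dies when a dimerizer (10 nM) is added, at 5 apoptotic cells per Mϕ. LPSEff Mϕ were co-cultured in the same way, washed and then stimulated for 6 h like the LPS group. The naïve groups are not described as having received the dimerizer, so that co-culture and dimerizer cannot be told apart. Mϕ were isolated with CD45 beads at harvest. Nothing states that the samples of a group came from separate animals or cultures, so that the p-values measure the spread between these samples, which may be technical.

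CXC chemokines fall into groups by their receptors. Cxcl1, Cxcl2, Cxcl3 and Cxcl5 act on Cxcr2 and attract neutrophils, and their genes are classical targets of NF-κB, which is activated by LPS through Toll-like receptor signaling. Cxcl9, Cxcl10 and Cxcl11 act on Cxcr3, attract activated T cells and natural killer cells, and are induced by interferons. Cxcl16 is made as a membrane protein, binds Cxcr6 and also takes up oxidized lipids, whereas Cxcl12, the ligand of Cxcr4, and Cxcl14 are mostly made without inflammation, often by stromal cells.

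The values are normalized counts, that is, reads per gene divided by a size factor for the sample. The samples held between 3481288 and 12020918 reads on genes, with Ctrl replicate 1 the shallowest, and 3 reads corresponded to 1.73 to 5.71 normalized counts. Such floors cover counting error only. All 12 Mϕ markers examined, among them Adgre1, Cd68 and Csf1r, were detected in every group, and their summed normalized count was between 107303 and 163180 per sample. Lyz2 alone gave between 54327 and 103975 per sample, so that the sums say less of the other markers. A list of 25 fibroblast markers summed to 2230 and 1932 in Ctrl and 7644 and 5776 in LPS. Fstl1 and Lox held most of these naïve sums, which thus say little of the other markers. Fstl1 alone gave 1580 and 1232 (Ctrl) or 2869 and 3259 (LPS). Lox gave a further 368 and 165 (Ctrl) or 3620 and 1335 (LPS). The sum of all 25 markers was 3591 and 7618 in Eff and 13305 and 14398 in LPSEff. Of the 23 that were tested, 19 were higher in both Eff samples than in both Ctrl samples, beside 16.3% of all tested genes, and 19 were higher in both LPSEff samples than in both LPS samples, beside 19.3%. Of all 25, 5 had at most 3 reads in each Ctrl sample. A list of 10 granulocyte markers summed to 6379 and 7900 in Ctrl against 10497 and 12682 in Eff, and to 5245 and 6223 in LPS against 8384 and 10242 in LPSEff. Of these sums, Mmp8 alone gave 5259 and 7172 in Ctrl and 8874 and 11538 in Eff. It gave 3380 and 4005 in LPS and 5736 and 8371 in LPSEff. Since NIH-3T3 cells are mouse cells, their RNA and that of the Mϕ cannot be told apart by sequence. In bulk RNA, fewer cells of a type and less RNA per cell cannot be told apart either.

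**Figure D1:**
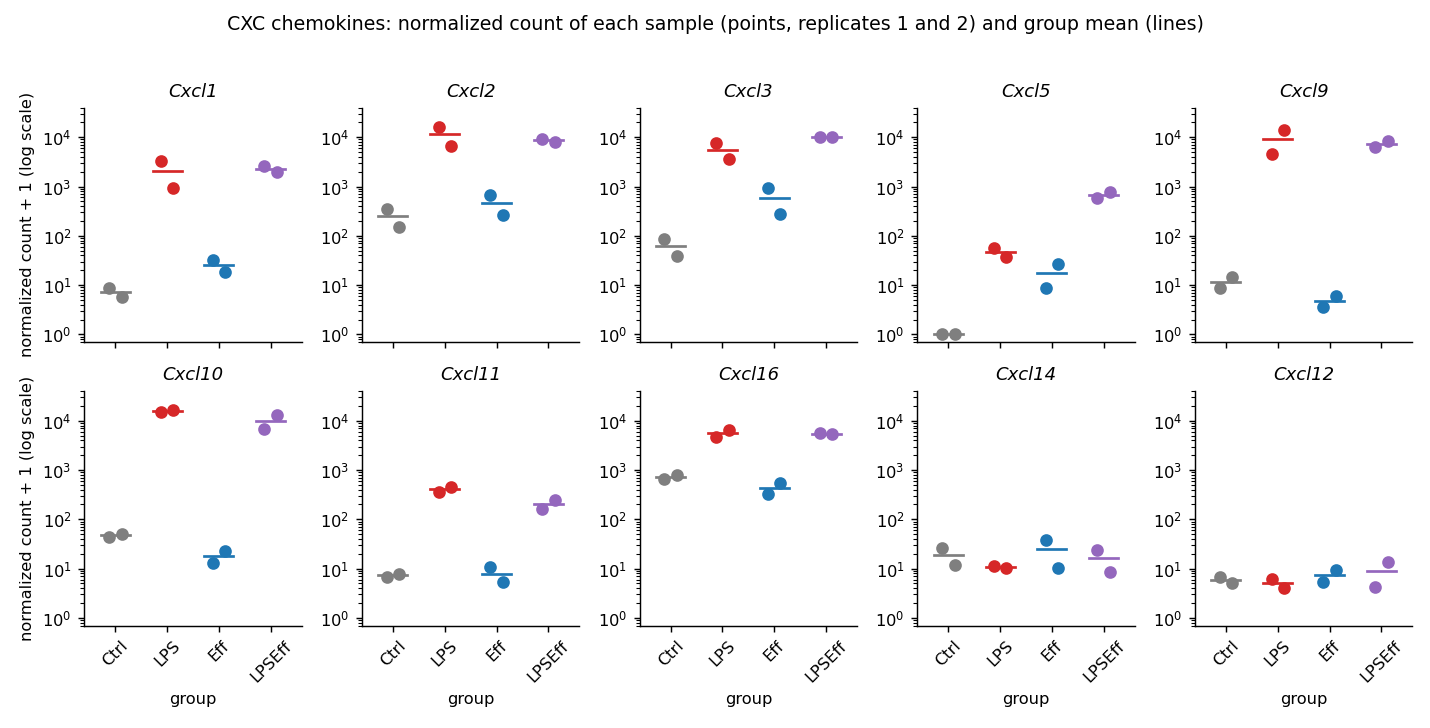
Normalized count + 1 (vertical axis, log scale) of each of the 10 CXC chemokines in the 4 groups (horizontal axis), with 1 point per sample and a line at the group mean. In 8 genes both stimulated groups lie above both unstimulated groups, Cxcl14 and Cxcl12 stay below 40 normalized counts throughout, and Cxcl5 is at 0 in both Ctrl samples and highest in LPSEff.

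Levels of different genes were compared per kilobase of merged exons (normalized count per kb). In Ctrl Mϕ, Cxcl16 led with 139.6 ± 16.1 per kb (SD, n = 2), ahead of Cxcl2 with 120.2 ± 69.6 per kb, and these neighbours overlapped between samples. Cxcl10 and Cxcl3 followed at 20.8 and 17.6 per kb, again overlapping, and the other 6 genes were each below 6 per kb. In LPS Mϕ the order began with Cxcl10 (6955 ± 538 per kb), Cxcl2 (5536 ± 3203), Cxcl9 (3067 ± 2243), Cxcl3 (1578 ± 797), Cxcl1 (1123 ± 875) and Cxcl16 (1094 ± 243), and each of these overlapped with the next. In LPSEff Mϕ the order was Cxcl10 (4358 ± 1880 per kb), Cxcl2 (4199 ± 396), Cxcl3 (2853 ± 26.7), Cxcl9 (2404 ± 433), Cxcl1 (1232 ± 232) and Cxcl16 (1064 ± 46.1), with Cxcl5 next at 360.7 ± 72.0 per kb. Only the pairs Cxcl10 and Cxcl2, and Cxcl1 and Cxcl16, overlapped between samples among these neighbours. In Eff Mϕ, Cxcl2 (226.6 ± 136 per kb), Cxcl3 (169.9 ± 130) and Cxcl16 (84.4 ± 29.6) led. With the longest transcript in place of merged exons, Cxcl1 and Cxcl16 exchanged places in LPS and LPSEff, as did Cxcl10 and Cxcl14 in Eff. For Cxcl3 both lengths are 3498 bases, but its main annotated transcript is far shorter, with 967 distinct stretches of 50 bases. That of Cxcl2 holds 1062 (2068 merged bases) and that of Cxcl10 holds 1052 (2252 merged bases). Levels per kb of main transcript were not computed. They would raise Cxcl3 more than Cxcl2 and Cxcl10, so that the orders can change.

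The make-up of the family was compared as shares. The 4 neutrophil-attracting genes made up 55.4% and 31.5% of the summed per-kb level of the 10 genes in Ctrl, and 87.8% and 65.5% in Eff. Their share with the stimulus was 56.3% and 26.4% in LPS and 59.0% and 46.6% in LPSEff. The 3 Cxcr3 ligands held 6.56% and 10.6% in Ctrl and 1.28% and 3.54% in Eff. Their share with the stimulus was 39.2% and 66.6% in LPS and 33.8% and 47.6% in LPSEff. Samples of the same group differed widely in these shares, and the smallest p that an exact permutation test can reach with 2 samples in each of 2 groups is 0.333. The shares are therefore given as a description, and they rest on the merged exon lengths as well.

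**Figure D2:**
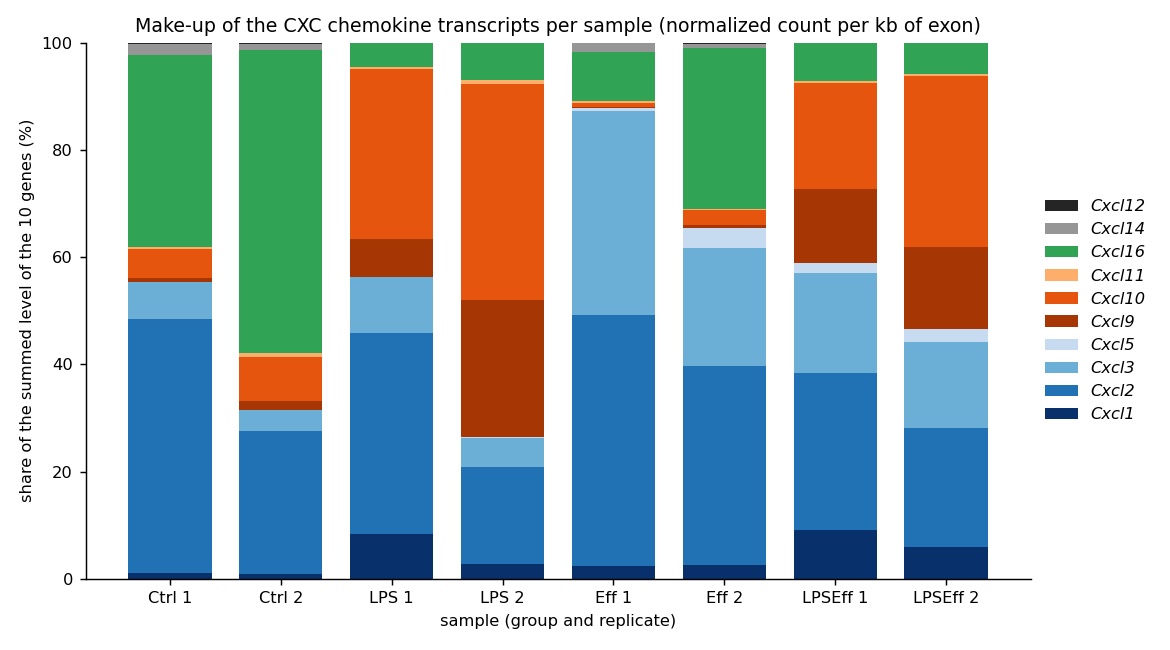
Share of each gene (stacked bars, %) in the summed normalized count per kb of the 10 CXC chemokines, 1 bar per sample. Blue marks the neutrophil-attracting genes (87.8% in Eff replicate 1), orange and brown the Cxcr3 ligands (66.6% in LPS replicate 2) and green Cxcl16 (56.5% in Ctrl replicate 2).

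Group differences were tested with limma on log2(normalized count + 1) in 16309 genes whose mean over all 8 samples reached 10 normalized counts. Adjusted p under 0.05 after the Benjamini-Hochberg correction counted as a call. Cxcl12 was below this filter, and the other 9 genes were tested, of which Cxcl1, Cxcl5, Cxcl9 and Cxcl11 reached it mainly through their stimulated samples. Fold changes are on the log2(normalized count + 1) scale, which understates the change of low genes. LPS/IFNγ raised 8 of the 9 tested chemokines in naïve Mϕ and the same 8 in efferocytic Mϕ, and lowered none of the 9. Over all tested genes, 12.4% were called higher and 11.6% lower in LPS vs Ctrl, and 10.7% were called higher and 8.95% lower in LPSEff vs Eff. The median log2 fold change of the 9 genes was 5.78 in LPS vs Ctrl and 4.73 in LPSEff vs Eff, beside -0.011 and 0.005 over all tested genes. Rescaling the samples to equal totals moved the median of all genes by -0.40 and -0.45 in these comparisons and left the calls of the 9 genes as they were. Between efferocytic and naïve Mϕ, this test called 1 of the 9, Cxcl5, both without the stimulus and with it. There, 0.215% of all tested genes were called higher and 0.0368% lower in Eff vs Ctrl, and 0.73% higher and 0.0429% lower in LPSEff vs LPS. With the replicate number as a block, 5 of the 9 were called in Eff vs Ctrl, beside 436 of all tested genes. In LPSEff vs LPS the block called 2, beside 1137 of all tested genes. The comparisons share samples (Ctrl, for example, serves both LPS vs Ctrl and Eff vs Ctrl), so that their values are given side by side and were not compared for overlap.

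**Figure D3:**
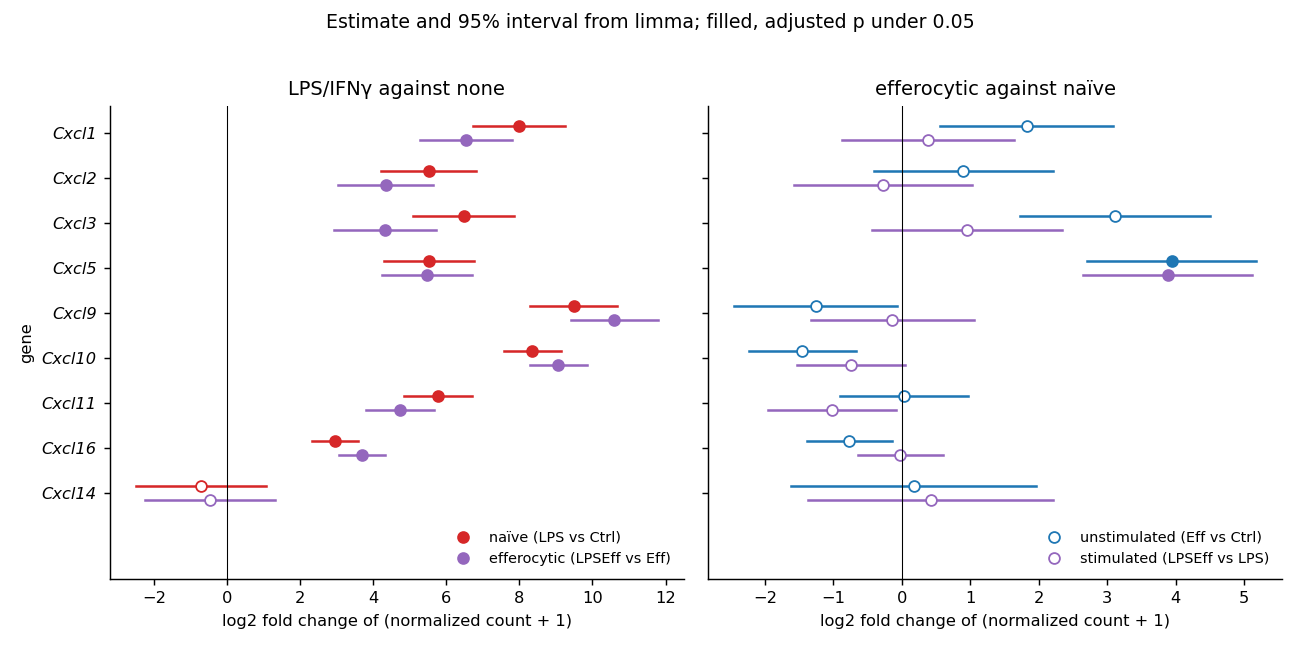
Log2 fold change of normalized count + 1 (horizontal axes) of the 9 tested CXC chemokines, with 95% intervals from limma (lines) and filled points for an adjusted p under 0.05. The left panel shows LPS/IFNγ against none and reaches 10.60 for Cxcl9 in efferocytic Mϕ, and the right panel shows efferocytic against naïve Mϕ, where Cxcl5 alone was called, at 3.94 without and 3.88 with the stimulus.

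The genes of the 4 neutrophil-attracting chemokines lie together on chromosome 5 of GRCm39. Cxcl5 (ENSMUSG00000029371, chr5:90907186-90909483, + strand) comes first, Cxcl3 (ENSMUSG00000029379, chr5:90933962-90937459, + strand) starts 26.8 kb after the start of Cxcl5, Cxcl1 (ENSMUSG00000029380, chr5:91039094-91040974, + strand) 131.9 kb and Cxcl2 (ENSMUSG00000058427, chr5:91051730-91053797, + strand) 144.5 kb. Their promoters share a 9-base run, GGAATTTCC, which is a form of the NF-κB site and lies between 60 and 107 bases before the start of the main annotated transcript. It is given in capitals within 59 bases of genomic sequence that overlap no annotated exon, to show how alike the flanks are.
Cxcl1 (chr5:91039009-91039067, + strand): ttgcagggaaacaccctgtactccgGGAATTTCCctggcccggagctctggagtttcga
Cxcl2 (chr5:91051637-91051695, + strand): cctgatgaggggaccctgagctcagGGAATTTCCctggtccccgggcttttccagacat
Cxcl3 (chr5:90933863-90933921, + strand): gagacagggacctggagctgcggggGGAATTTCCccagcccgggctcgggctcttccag
Cxcl5 (chr5:90907105-90907163, + strand): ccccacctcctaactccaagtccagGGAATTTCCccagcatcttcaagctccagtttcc
On either strand, this run was found in 66 of 21770 promoters of protein-coding genes (250 bases before the start), or 0.303%. It was picked after these sequences had been seen, and it can overlap the looser form GGGNNNNNCC, which 47.8% of promoters hold. A match is a description of the letters and no measured binding.

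Cxcl1, a main neutrophil attractant of the mouse, was close to the floor in Ctrl. It had 7.62 and 4.63 normalized counts in Ctrl and 31.5 and 17.6 in Eff. With the stimulus, Cxcl1 had 3276 and 948 in LPS and 2626 and 2009 in LPSEff. Every stimulated sample lay far above every unstimulated sample, and the LPS samples enclosed the LPSEff samples. The log2 fold change was 7.98 ± 0.55 (SE, n = 2 against 2, limma adjusted p = 7.23e-05) in naïve and 6.54 ± 0.55 (adjusted p = 0.000157) in efferocytic Mϕ.

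Cxcl2, also known as MIP-2, had the highest level of the 4 per kb of merged exons in Ctrl. In Eff it was also the highest, overlapping with Cxcl3, but that order can change with the main transcript. It had 350.4 and 147 normalized counts in Ctrl and 668 and 269.6 in Eff. With the stimulus, Cxcl2 had 16132 and 6764 in LPS and 9262 and 8105 in LPSEff. The Ctrl and Eff samples overlapped, as did the LPS and LPSEff samples. LPS/IFNγ raised it by 5.52 ± 0.57 on the log2 scale (SE, limma adjusted p = 0.000423) in naïve and by 4.35 ± 0.57 (adjusted p = 0.00142) in efferocytic Mϕ.

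Cxcl3, which shares its receptor and much of its sequence with Cxcl2, had 85.7 and 37.6 normalized counts in Ctrl and 917 and 272 in Eff. With the stimulus, Cxcl3 had 7489 and 3548 in LPS and 9915 and 10048 in LPSEff. Both Eff samples lay above both Ctrl samples, and both LPSEff samples above both LPS samples. LPS/IFNγ raised Cxcl3 by 6.48 ± 0.60 (SE, limma adjusted p = 0.000273) in naïve and by 4.32 ± 0.60 (adjusted p = 0.00205) in efferocytic Mϕ. Of the stretches of 50 bases in the transcripts of Cxcl2 and Cxcl3, 61 were identical in both, which is 5.74% and 6.31% of their stretches. Reads trimmed to fewer than 50 bases can match both genes more often, and how many reads did so was not tested.

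Cxcl5, an attractant of neutrophils that epithelial and stromal cells are also known to make, was the chemokine called with efferocytosis by the main test. It had 0 reads in both Ctrl samples, which allows up to 5.71 and 1.73 normalized counts (3 reads each). It had 55.6 and 36.6 normalized counts in LPS. After co-culture, Cxcl5 had 7.89 and 25.4 in Eff and 587 and 781 in LPSEff. The LPSEff samples lay above all other samples, and no sample of Ctrl overlapped with any other group. Against the floor of 3 reads per Ctrl sample, Cxcl5 was at least 12.4-fold higher in LPS and at least 4.47-fold higher in Eff. The bound for Eff was 2.12 without Eff replicate 2, 6.82 without Eff replicate 1, 9.6 without Ctrl replicate 1 and 2.91 without Ctrl replicate 2. The bound for LPS was 26.6 without Ctrl replicate 1 and 8.07 without Ctrl replicate 2. In efferocytic Mϕ, LPS/IFNγ raised it by 5.47 ± 0.54 on the log2 scale (SE, limma adjusted p = 0.000351), and the rise in naïve Mϕ had an adjusted p of 0.000349. The exons of Cxcl5 share 523 bases (27.58% of its own) with Gm72413, a noncoding RNA gene on the opposite strand without values in these data.

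In stimulated Mϕ, Cxcl5 was 14.7-fold higher after efferocytosis (log2 fold change 3.88 ± 0.54 SE, n = 2 against 2, limma adjusted p = 0.0273), and edgeR (adjusted p = 0.0279) and DESeq2 (4.6e-15) on the recovered reads made the same call. With 1 sample left out, the log2 fold change stayed between 3.58 and 4.17, and the adjusted p passed the threshold without Ctrl replicate 1, Eff replicate 1 or Eff replicate 2. It did not pass without Ctrl replicate 2, LPS replicate 1, LPS replicate 2, LPSEff replicate 1 or LPSEff replicate 2. All of these fits, passing or not, leave 1 group with 1 sample. Without the stimulus, the adjusted p of Cxcl5 in Eff vs Ctrl was 0.0402 and rested on 9 and 36 reads in Eff against 0 in Ctrl. That call was lost in edgeR (0.181) and with a pseudocount of 5 (0.209), and without Ctrl replicate 1 (0.234), Ctrl replicate 2 (0.138), LPS replicate 2 (0.0526), Eff replicate 2 (0.222), LPSEff replicate 1 (0.114) or LPSEff replicate 2 (0.122). It was kept in DESeq2 (0.00336). The fibroblast markers moved with Cxcl5 in both comparisons (of 23 tested markers, 8 were called higher without the stimulus and 11 with it), and their part in the result was not tested. The summed granulocyte markers were also higher in the efferocytic groups, where S100a8 was the 1 of 7 tested markers called in Eff vs Ctrl (limma adjusted p = 0.0402) and none was called in LPSEff vs LPS, and their part was not tested either.

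The other neutrophil-attracting genes were not called between efferocytic and naïve Mϕ by the main test. In Eff vs Ctrl, the log2 fold change was 3.11 (95% interval 1.73 to 4.50, limma adjusted p = 0.138) for Cxcl3, 1.82 (0.56 to 3.08, adjusted p = 0.447) for Cxcl1 and 0.90 (-0.40 to 2.20, adjusted p = 0.999) for Cxcl2. Cxcl3 was called in DESeq2 on the recovered reads (adjusted p = 0.00725) but not in edgeR (0.2). It was also called by limma with genes of a mean above 0 (0.0302). With the replicate number as a block, limma called Cxcl3 (0.000548) and Cxcl1 (0.00813) but not Cxcl2 (0.084). In LPSEff vs LPS, the log2 fold change was 0.95 (-0.43 to 2.34) for Cxcl3, 0.38 (-0.88 to 1.64) for Cxcl1 and -0.27 (-1.57 to 1.03) for Cxcl2. These 3 intervals include changes in both directions.

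Along chromosome 5, another 2 ligand genes next to Cxcl5 had their higher values in the efferocytic samples without passing the main test. Ppbp, the precursor of a platelet chemokine that is also called Cxcl7, starts 9.2 kb and Pf4, platelet factor 4 or Cxcl4, 11.3 kb from the start of Cxcl5. Pf4 had 175 and 123 normalized counts in Ctrl and 1472 and 474 in Eff. With the stimulus, Pf4 had 200.5 and 145 in LPS and 1503 and 702 in LPSEff. Ppbp had 0 and 3.47 in Ctrl and 174 and 41.6 in Eff. With the stimulus, Ppbp had 9.05 and 6.09 in LPS and 193 and 88.8 in LPSEff. For both genes all 4 efferocytic samples lay above all 4 naïve samples, but neither passed the main test. With the replicate number as a block, both genes were called in both comparisons. The log2 fold change of Pf4 was 2.50 ± 0.54 (SE, limma adjusted p = 0.194) without and 2.58 ± 0.54 (adjusted p = 0.102) with the stimulus. For Ppbp, which had 0 and 6 reads in Ctrl, the fitted values were 5.35 ± 0.87 (adjusted p = 0.0682) and 3.97 ± 0.87 (adjusted p = 0.116). Ppbp passed the filter on low values mainly through its efferocytic samples. The log2 fold change of Pf4 with LPS/IFNγ was 0.21 ± 0.54 (SE) in naïve and 0.30 ± 0.54 in efferocytic Mϕ (adjusted p = 0.825 and 0.763). Platelets hold both proteins, and a list of platelet markers was not examined. Cxcl15, which lies 35.2 kb from the start of Cxcl5, had at most 2 reads per sample.

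**Figure D4:**
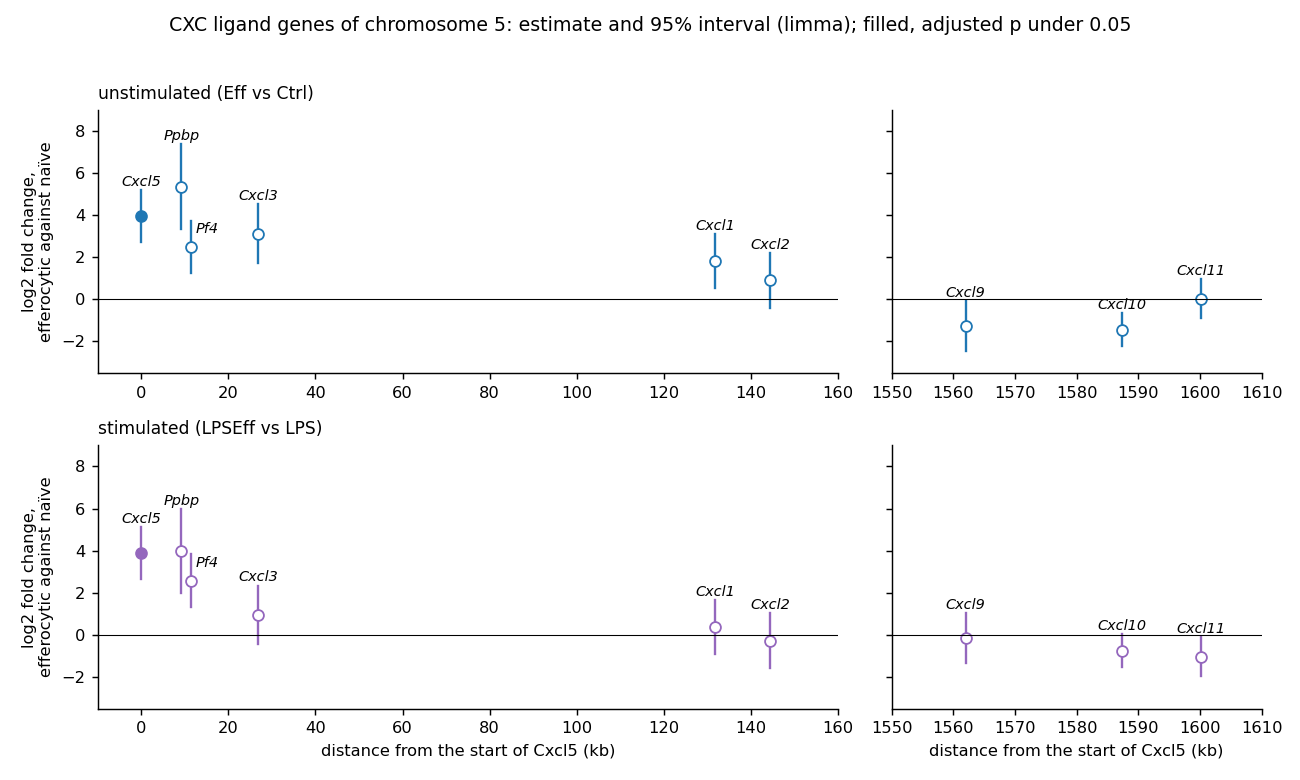
Log2 fold change between efferocytic and naïve Mϕ (vertical axes, with 95% intervals from limma) of the tested CXC ligand genes of chromosome 5, by the distance of their start from that of Cxcl5 (horizontal axes, kb, with a gap in the axis). Without the stimulus (upper panels) the values are 3.94 for Cxcl5, 5.35 for Ppbp, 2.50 for Pf4, 3.11 for Cxcl3, 1.82 for Cxcl1 and 0.90 for Cxcl2, and Cxcl9, Cxcl10 and Cxcl11, over 1500 kb away, lie between -1.45 and 0.03.

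**Figure D5:**
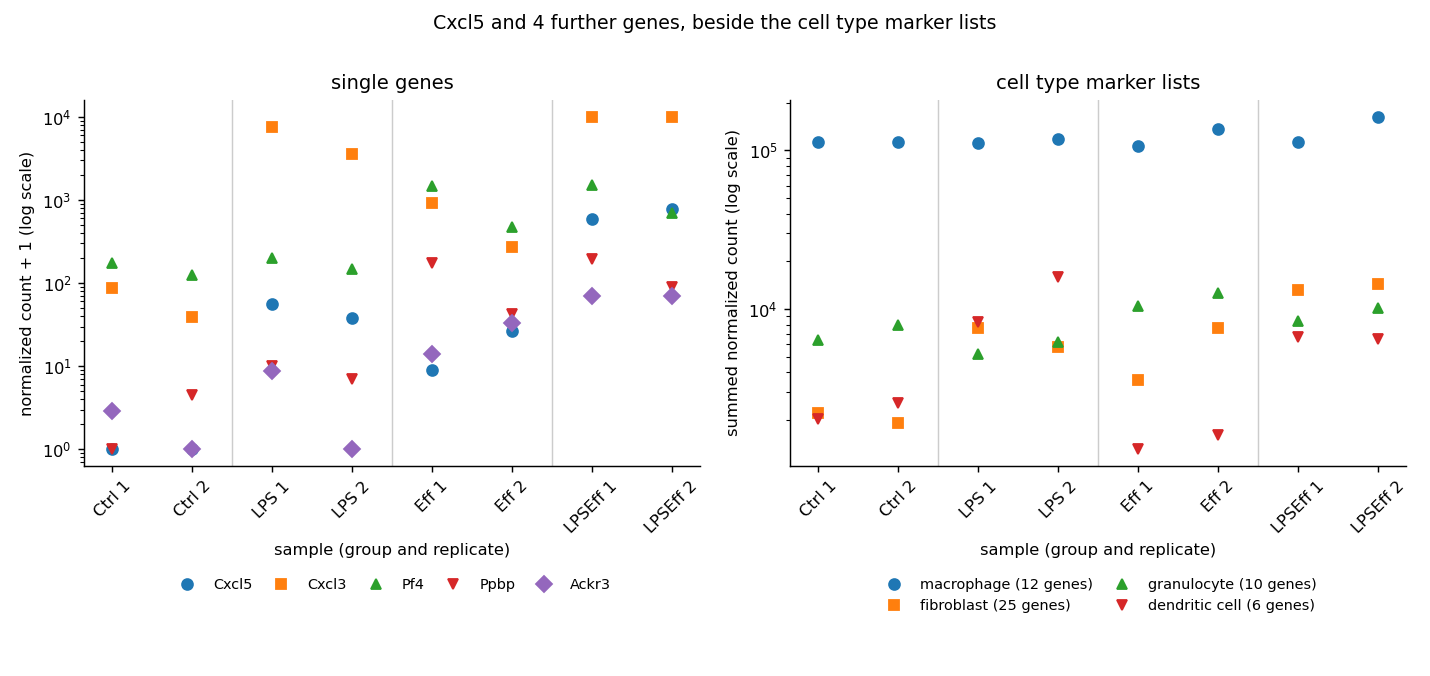
Left, normalized count + 1 (log scale) of Cxcl5, Cxcl3, Pf4, Ppbp and Ackr3 in each of the 8 samples. Right, summed normalized count (log scale) of the marker lists of Mϕ, fibroblasts, granulocytes and dendritic cells. Lyz2 is the largest single part of the Mϕ sums. Mmp8 holds most of the granulocyte sums and Ccr7 most of the dendritic cell sums. Fstl1 and Lox hold most of the fibroblast sums in naïve samples. Cxcl5 is at 0 in Ctrl and at 587 and 781 in LPSEff, where the fibroblast list also has its highest sums (13305 and 14398).

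The Cxcr3 ligands form a second group on chromosome 5, all on the - strand: Cxcl9 (ENSMUSG00000029417, chr5:92469206-92475945), Cxcl10 (ENSMUSG00000034855, chr5:92494497-92496748) and Cxcl11 (ENSMUSG00000060183, chr5:92507403-92513344). The promoter of Cxcl10 holds the 9-base run above on the opposite strand, 158 bases before the start, and an interferon-stimulated response element (GAAANNGAAA, in 3.32% of promoters on either strand) 213 bases before the start. Both are shown in capitals because this promoter holds both.
Cxcl10, 9-base run (chr5:92496873-92496931, - strand): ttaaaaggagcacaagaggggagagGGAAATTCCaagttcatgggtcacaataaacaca
Cxcl10, response element (chr5:92496927-92496986, - strand): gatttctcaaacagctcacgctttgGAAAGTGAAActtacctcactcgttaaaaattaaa
Cxcl9 and Cxcl11 held neither in these 250 bases, which says nothing of sites elsewhere. Cxcl14, which did not rise with the stimulus, also held the response element, 112 bases before its start, and it was the member with a match to the interferon γ-activated form TTCNNNGAA (in 7.7% of promoters), 131 bases before its start. Both matches of Cxcl14 lie in sequence annotated as exon, unlike the matches printed for the other genes.

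Cxcl9, also known as MIG and named for its induction by interferon γ, had the second largest absolute log2 fold change of all 16309 tested genes in both comparisons. It had 7.62 and 13.3 normalized counts in Ctrl and 2.63 and 4.94 in Eff. With the stimulus, Cxcl9 had 4478 and 14066 in LPS and 6341 and 8192 in LPSEff. The stimulated and unstimulated samples were far apart, and the LPS samples enclosed the LPSEff samples. The log2 fold change was 9.48 ± 0.52 (SE, limma adjusted p = 3.15e-05) in naïve and 10.60 ± 0.52 (adjusted p = 1.54e-05) in efferocytic Mϕ. The Eff samples rested on 3 and 7 reads.

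Cxcl10, or IP-10, reached the highest normalized count of the family. It had 43.8 and 49.7 in Ctrl and 12.3 and 21.9 in Eff. With the stimulus, Cxcl10 had 14805 and 16518 in LPS and 6819.8 and 12808 in LPSEff. Both Eff samples were below both Ctrl samples, and both LPSEff samples below both LPS samples. LPS/IFNγ raised Cxcl10 by 8.36 ± 0.34 (SE, limma adjusted p = 9.5e-06) in naïve and by 9.07 ± 0.34 (adjusted p = 4.95e-06) in efferocytic Mϕ. The gene shares 133 exonic bases (5.91% of its own) with Art3 on the opposite strand, and Art3 itself had 1.9 and 5.2 normalized counts in Ctrl, 1051.5 and 2502 in LPS, and 551 and 1706 in LPSEff. Reads were counted by strand in the default mode of the counting tool, and whether the libraries keep strand was not tested.

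Cxcl11, or I-TAC, had the lowest per-kb level of the 3 in Ctrl, LPS and LPSEff, and its gene is known to carry a frameshift in C57BL/6 mice, so that its RNA does not give a functional chemokine. It had 5.71 and 6.94 normalized counts in Ctrl and 9.64 and 4.23 in Eff. With the stimulus, Cxcl11 had 357 and 449 in LPS and 162 and 239.9 in LPSEff. The LPSEff samples were below both LPS samples, whereas Ctrl and Eff overlapped. The log2 fold change with LPS/IFNγ was 5.78 ± 0.41 (SE, limma adjusted p = 7.91e-05) in naïve and 4.73 ± 0.41 (adjusted p = 0.000175) in efferocytic Mϕ. The exons of Cxcl11 share 1582 bases (41.7% of its own) with the pseudogene Gm2673 on the opposite strand. Gm2673 had at most 2.63 normalized counts in any sample.

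None of the 3 Cxcr3 ligands was called between efferocytic and naïve Mϕ by the main test. In Eff vs Ctrl, the log2 fold change was -1.45 (95% interval -2.24 to -0.67, limma adjusted p = 0.258) for Cxcl10, -1.26 (-2.45 to -0.07, adjusted p = 0.765) for Cxcl9 and 0.03 (-0.90 to 0.97, adjusted p = 0.999) for Cxcl11. DESeq2 on the recovered reads called Cxcl10 lower (adjusted p = 0.0356), and edgeR did not (0.325). With the replicate number as a block, limma called Cxcl10 (0.00369) and Cxcl9 (0.0285) lower. In LPSEff vs LPS the log2 fold change was -0.74 (-1.53 to 0.04, adjusted p = 0.522) for Cxcl10, -1.02 (-1.96 to -0.09, adjusted p = 0.433) for Cxcl11 and -0.14 (-1.33 to 1.05, adjusted p = 0.971) for Cxcl9. There the block called Cxcl10 lower (limma adjusted p = 0.0491). The summed normalized count of 6 dendritic cell markers was also lower in LPSEff (6688 and 6483) than in LPS (8292 and 16025). The same sum was lower in Eff (1312 and 1620) than in Ctrl (2039 and 2576). Ccr7 held most of it, with 7649 and 14409 of the LPS sums and 1839 and 2128 of the Ctrl sums. Of the 4 tested genes of this list, 3 had both LPSEff samples below both LPS samples, beside 17% of all tested genes. Without the stimulus, only Ccr7, 1 of these 4, had both Eff samples below both Ctrl samples, beside 17.8% of all tested genes. The part of the list in the chemokine values was not tested.

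Cxcl16 (ENSMUSG00000018920, chr11:70344517-70352620, - strand) was the member with the highest mean per-kb level in Ctrl Mϕ, where its samples overlapped with those of Cxcl2. It had 657 and 774 normalized counts in Ctrl and 325 and 539.9 in Eff. With the stimulus, Cxcl16 had 4725 and 6488 in LPS and 5617 and 5283 in LPSEff. The Eff samples were below the Ctrl samples, and the LPS samples enclosed the LPSEff samples. LPS/IFNγ raised it by 2.96 ± 0.27 on the log2 scale (SE, limma adjusted p = 0.00026), or 7.76-fold, in naïve and by 3.70 ± 0.27 (adjusted p = 7.77e-05), or 13.0-fold, in efferocytic Mϕ. Between efferocytic and naïve Mϕ, Cxcl16 differed by -0.77 (95% interval -1.39 to -0.14, limma adjusted p = 0.616) without and -0.02 (-0.65 to 0.60, adjusted p = 0.994) with the stimulus. Its exons share 2213 bases with Med11 and 2132 bases with Zmynd15 on the opposite strand. Zmynd15 had 177 and 182 normalized counts in Ctrl and 1275 and 1200 in LPS. After co-culture, Zmynd15 had 95.5 and 136 in Eff and 1648 and 1080 in LPSEff, while Med11 was between 259 and 371 in all samples.

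Cxcl14 and Cxcl12 stayed low. Cxcl14 (ENSMUSG00000021508, chr13:56436352-56444603, - strand) had 24.8 and 10.99 normalized counts in Ctrl and 10.3 and 9.14 in LPS. After co-culture, Cxcl14 had 37.7 and 9.17 in Eff and 23.0 and 7.6 in LPSEff. Both LPS samples were below both Ctrl samples and the other groups overlapped, and the log2 fold change with LPS/IFNγ was -0.71 (95% interval -2.50 to 1.07, limma adjusted p = 0.568) in naïve and -0.47 (-2.25 to 1.32, adjusted p = 0.741) in efferocytic Mϕ. Cxcl12 (ENSMUSG00000061353, chr6:117144945-117158328, + strand), a chemokine that stromal cells such as fibroblasts make in quantity, had between 3 and 12 reads per sample, or 3.05 to 12.7 normalized counts, with 4.38 and 8.47 in Eff and 3.17 and 12.7 in LPSEff. It was not tested.

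Whether efferocytosis changed the response to LPS/IFNγ was tested as the difference between both responses. None of the 9 chemokines passed, and the share of all tested genes called was 0% (limma). At an unadjusted p under 0.05 there were 311 genes, and neither edgeR (369 at that level) nor DESeq2 (244) called any gene after adjustment. The difference was -2.16 ± 0.85 on the log2 scale (SE, 95% interval -4.12 to -0.20, adjusted p = 1) for Cxcl3, which began from a higher level in Eff. It was -1.44 (-3.23 to 0.34) for Cxcl1, -1.17 (-3.01 to 0.67) for Cxcl2, 1.12 (-0.57 to 2.80) for Cxcl9, 0.71 (-0.40 to 1.82) for Cxcl10, -1.05 (-2.37 to 0.27) for Cxcl11 and 0.74 (-0.14 to 1.62) for Cxcl16. Cxcl5 gave -0.06 (-1.81 to 1.69), a value that depends on the pseudocount because Ctrl was at 0. The interval was below 0 for Cxcl3 before adjustment and included 0 for the others.

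The receptors of these ligands were low, apart from Cxcr4. Cxcr4 had 518 and 522 normalized counts in Ctrl and 352 and 434 in Eff. With the stimulus, Cxcr4 had 294 and 403 in LPS and 232 and 168 in LPSEff, and fell by 0.98 ± 0.24 (SE, log2, limma adjusted p = 0.0241) with LPS/IFNγ in efferocytic Mϕ, beside -0.59 ± 0.24 (adjusted p = 0.119) in naïve Mϕ. Cxcr5, the receptor of Cxcl13, rose in LPS (24.6 and 53.8) over Ctrl (5.71 and 3.47) by 2.77 ± 0.59 (adjusted p = 0.0119), and was at 18.2 and 14.0 in LPSEff against 2.63 and 4.94 in Eff (adjusted p = 0.0619). Its unstimulated samples rested on few reads, with 3 and 6 in Ctrl and 3 and 7 in Eff. Ackr3, which binds Cxcl12 and Cxcl11 without G protein signaling, had 1 and 0 reads in Ctrl and 6 and 0 in LPS. After co-culture, Ackr3 had 15 and 46 reads in Eff and 88 and 55 in LPSEff. Its efferocytic samples were above all naïve samples but neither comparison passed the main test (limma adjusted p = 0.393 without and 0.129 with the stimulus), and the fibroblast markers moved in the same samples. Cxcr2, the receptor of the neutrophil attractants, was between 0 and 5.26 normalized counts, Cxcr1 between 0 and 3.81, Cxcr3 between 0 and 12.7, Cxcr6 between 3.51 and 16.8, and Ackr1 at most 1.16. Of the 8 receptors, 3 passed the filter on low values, Cxcr5 mainly through its stimulated and Ackr3 mainly through its efferocytic samples. The ligands Cxcl13, Cxcl15 and Cxcl17 had at most 2 reads in any sample.

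Genes that act on the chemokines or on their RNA were examined as lists chosen from general knowledge. Of 16 regulators of the NF-κB and interferon pathways, all of which were tested, 15 rose with LPS/IFNγ in naïve and 15 in efferocytic Mϕ, with a median log2 fold change of 2.41 and 2.36. Over all tested genes, 12.4% and 10.7% were called higher. The largest values were those of Irf7, an interferon regulatory factor (5.25 ± 0.49 SE, limma adjusted p = 0.000266, and 5.48 ± 0.49 in efferocytic Mϕ, adjusted p = 0.000203), and of Nfkbiz, a nuclear IκB protein (4.40 ± 0.32, adjusted p = 9.43e-05), in naïve and Irf1 (4.16 ± 0.24, adjusted p = 2.99e-05) in efferocytic Mϕ. Irf3 was the one that did not pass in either. With efferocytosis, none of the 16 passed the main test, and 8 had both Eff samples below both Ctrl samples, as had 17.8% of all tested genes. The largest values were -0.89 for Relb and -0.80 for Stat2 without the stimulus, and -0.79 for Rel and -0.64 for Nfkbiz in LPSEff vs LPS.

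Of 11 enzymes that cut or modify chemokines, 3 rose in LPS vs Ctrl, 4 in LPSEff vs Eff and 1 in LPSEff vs LPS, and none fell. Over all tested genes, 12.4%, 10.7% and 0.73% were called higher in these comparisons. The collagenase Mmp13 rose by 3.86 ± 0.38 and 3.12 ± 0.38 (SE, log2, limma adjusted p = 0.000371 and 0.00107) and the membrane-bound Mmp14 by 2.998 ± 0.17 and 2.74 ± 0.17 (adjusted p = 3.3e-05 and 3.56e-05) with LPS/IFNγ in naïve and efferocytic Mϕ. The gelatinase Mmp9 was the enzyme higher in LPSEff (243 and 299.5 normalized counts) than in LPS (64.7 and 34.5), with a log2 fold change of 2.49 ± 0.37 and an adjusted p of 0.0319, ahead of the cathepsin Ctsk with 0.98 ± 0.56 (adjusted p = 0.631). In Eff vs Ctrl, Mmp9 and Mmp13 had 1.36 ± 0.37 and 1.32 ± 0.38, with adjusted p of 0.37 and 0.404.

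The RNAs of inflammatory chemokines can be unstable when their 3′ ends hold AU-rich elements, which are bound by decay factors such as Zfp36, also called tristetraprolin. In the annotated 3′ UTR, the 9-base form of the element, TTATTTATT, occurred 4 times in Cxcl2, 2 times in Cxcl1 and 1 time in Cxcl3, and in none of the other 7 genes, whereas 8.34% of 20858 genes held it. The 5-base form ATTTA, which is part of it, occurred 11 times in Cxcl2, 7 in Cxcl1, 5 each in Cxcl3 and Cxcl5, and 1 to 4 times in the others, beside a median of 1 over all genes. UTR lengths differ (592 bases in Cxcl1 and 5188 in Cxcl12, with a median of 1082.5 over all genes), and longer UTRs hold more matches. Of 10 genes of RNA decay, 4 rose and 1 fell in LPS vs Ctrl, 3 rose and 1 fell in LPSEff vs Eff, and none passed with efferocytosis. Over all tested genes, 12.4% rose and 11.6% fell in the first and 10.7% rose and 8.95% fell in the second comparison, so that 1 of 10 lower was close to the general share. The ribonuclease gene Zc3h12a, or regnase-1, rose by 3.24 ± 0.33 (SE, limma adjusted p = 0.00043) in naïve and by 2.76 ± 0.33 (adjusted p = 0.00102) in efferocytic Mϕ. Zfp36l2, a relative of Zfp36, fell by 2.16 ± 0.34 (adjusted p = 0.0032) in naïve Mϕ, and Zc3h12c rose by 2.50 ± 0.17 (adjusted p = 5.99e-05) in efferocytic Mϕ. The largest values with efferocytosis were 0.79 for Zc3h12a and -0.61 for Zc3h12c in Eff vs Ctrl, and 0.90 for Zfp36l2 and -0.50 for Zfp36l1 in LPSEff vs LPS.

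Genes with the most similar profile were found for each tested chemokine as those with the smallest root mean square distance between log2 profiles centred on their own mean over the 8 samples, among 16308 other genes. Cxcl16 had the closest partner, Tap1, a peptide transporter of antigen presentation, at 0.10 log2 units, followed by Gm18445 and Casp4. Cxcl2 was closest to Lcn2 (0.24), which codes for lipocalin 2, then Slfn4 and Fpr1, and Cxcl14 to Rps2-ps7 (0.29), Rpl10a and Gm4837. Cxcl11 was closest to Dll4 (0.40), Wfdc8 and Mx2, and Cxcl10 to its neighbour Art3 (0.47), Il12b and Rsad2. Cxcl1 was closest to Gm14023 (0.64), Ptgs2 and Il1a, Cxcl9 to Art3 (0.76), Nos2 and Cxcl10, and Cxcl3 to Ptges (0.85), Fpr1 and Fst. Cxcl5 had the most distant partners, with Ereg, which codes for the growth factor epiregulin, at 0.99, Tm4sf1 at 1.31 and Cxcl3 at 1.399 log2 units. The points of these profiles share the samples' depth and group means, so that the distances describe likeness over the 4 groups and no more.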

How the data were processed

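Total RNA of 8 samples was depleted of rRNA and sequenced by the authors, who trimmed reads with cutadapt, took out rRNA with Bowtie2, aligned the rest to mm39 using STAR and obtained counts per gene from HTSeq. What the authors deposited is a signal for each gene, namely its normalized count (reads divided by the DESeq2 size factor of the sample); versions, filters and annotation release were not given in the sources used here. In every sample 100% of values were whole multiples of 1 read (tolerance 0.01 reads), which gave recovered reads and depth. Names, exons and promoters came from GENCODE M39 on GRCm39 (54749 of 55359 identifiers named).

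The test was limma 3.58.1 in R 4.3.3 applied with its trend option to log2(normalized count + 1), with 4 group means, 4 residual degrees of freedom and Benjamini-Hochberg adjustment over 16309 genes. Alternatives were a pseudocount of 0.5 or 5, a mean filter above 0 or at 50, a fit of the compared groups alone, a replicate block, quantile normalization, equal totals, edgeR 4.0.16 and DESeq2 1.42.0 on recovered reads, and leaving out each sample. Replicates differed by 23.8 to 39.7 chi-square per degree of freedom in their reads. No pair of files therefore agreed within counting noise, which does not separate biological from technical replicates.

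The chemokines and gene lists were chosen with earlier results of these data known. All chemokines, other CXC ligands and receptors are named, and of each further list the 2 genes with the largest absolute log2 fold change per comparison. For each tested chemokine the 3 nearest genes are named, with genes that share exonic bases.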

Additional observations from a re-analysis of the deposited data

How the results depend on the processing

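The 8 calls with LPS/IFNγ were made under every alternative in naïve and in efferocytic Mϕ, and the difference between the responses gave 0 calls under each alternative run, which needs all 4 groups and so has no fit of the compared groups alone. The count of chemokines called in Eff vs Ctrl (1, Cxcl5) was 0 with a pseudocount of 5, genes with a mean of at least 50, only the groups compared, quantile normalization or edgeR, 2 with genes of a mean above 0 (Cxcl3 and Cxcl5), 3 with DESeq2 (Cxcl3, Cxcl5 and Cxcl10), and between 0 and 1 with 1 sample left out. In LPSEff vs LPS (1, Cxcl5) it was 1 under the alternatives other than the replicate block, and between 0 and 1 with 1 sample left out. No called value changed its sign. With a group of 1 sample, that sample is assumed to vary like the others.

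With the replicate number as a block, 5 chemokines were called in Eff vs Ctrl (Cxcl1, Cxcl3 and Cxcl5 higher, Cxcl9 and Cxcl10 lower) and 2 in LPSEff vs LPS (Cxcl5 higher and Cxcl10 lower), as were Pf4 (adjusted p = 0.000627 and 0.000334) and Ppbp (0.00503 and 0.0137) in both. Ackr3 (0.0133) and Cxcr4 (0.0441) were called in LPSEff vs LPS, as was Rel (0.022), and Relb (0.0263), Stat2 (0.0106) and Irf1 (0.0405) in Eff vs Ctrl. Over all genes, the calls with the block went from 41 to 436 and from 126 to 1137. The differences between replicates 1 and 2 correlated between groups (r between 0.404 and 0.595 for the 6 group pairs, across 16309 genes, which are not independent). Same-numbered samples thus shared part of their variation. The labels give no shared preparation, so that its source is not known, and the block rests on 2 numbers. The Eff and Ctrl samples of Cxcl1, Cxcl5, Cxcl9, Cxcl11 and Cxcl12 rest on few reads, and 2 samples per group limit the precision of all intervals.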

Other observations

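Samples with the replicate number 1 differed from those with the number 2 in a similar way in several groups. As log2 of replicate 1 over replicate 2, Cxcl2 was 1.25 in Ctrl, 1.25 in LPS, 1.31 in Eff and 0.19 in LPSEff, and Cxcl1 was 0.615, 1.79, 0.80 and 0.39. Cxcl9 had the opposite sign in all 4 groups (-0.73, -1.65, -0.71 and -0.37), as had Cxcl10 (-0.18, -0.16, -0.79 and -0.91).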
